A study of Mus musculus with 8 samples.

Results

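The genes described here are 9 mouse genes of the interferon response and of RNA sensing: Ifih1, Ddx58, Irf7, Isg15, Usp18, Ifit1, Ifit3, Oasl2 and Bst2. They were taken as a list of names, with no threshold on a measured value, all 9 were matched among the 50599 gene records of each library, and all 9 were tested. RNA from the hearts of 4 wildtype and 4 Lrpprc knockout mice of strain C57BL/6N was sequenced, and the comparison asked whether disturbed mitochondrial RNA went with an interferon response. The animals were males aged 12 weeks. The controls carried the Lrpprc loxP/loxP alleles without Cre, and the knockouts carried Lrpprc loxP/loxP with a Cre that removes the gene in heart and skeletal muscle. Which cells of the heart still made Lrpprc was not measured. Lrpprc encodes a mitochondrial RNA-binding protein.

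RNA in duplex form, including RNA that escapes from mitochondria, can be bound in the cytosol by the helicases MDA5 and RIG-I. They signal through the mitochondrial adaptor MAVS to interferon regulatory factors, which switch on type I interferon genes. Secreted interferon then acts on its receptor, and a complex that includes STAT2 and IRF9 binds the interferon-stimulated response element (ISRE) in the promoters of a large set of genes, among them the genes described here.

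Stretches of promoter are shown because they carry the element by which such genes are usually recognised. The ISRE was searched as TTTCNNTTTC, which reads GAAANNGAAA on the other strand, in RefSeq windows (GRCm38.p6) of 300 bases, from 250 before to 50 after each gene's start. The windows of 8 of the 9 genes were found, and 6 of the 8 held it, against 3.99% of 27025 genes with a window. Those of Ifih1, Ddx58, Isg15, Ifit1, Ifit3 and Bst2 held a match and those of Irf7 and Oasl2 did not. The match of Ifih1 and of Ddx58 lay after the start and is not printed. Stretches of 4 genes are given on the gene's own strand, with the matches, joined where they overlap, in capitals. They are Isg15 at chr4:156200871-156200900 (minus), Ifit1 at chr19:34640796-34640821 (plus), Ifit3 at chr19:34583365-34583390 (plus) and Bst2 at chr8:71537580-71537609 (minus).
Isg15: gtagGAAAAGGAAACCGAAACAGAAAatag
Ifit1: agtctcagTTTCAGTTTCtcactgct
Ifit3: gtggtaagTTTCACTTTCctcttctg
Bst2: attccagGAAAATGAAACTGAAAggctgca
A match is a run of letters and not a measured binding site.

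None of the 9 genes passed the test at an adjusted p under 0.05 in either direction (DESeq2, adjusted over all genes tested), and at an unadjusted p under 0.05 there were 3, Ifih1, Ddx58 and Bst2, all lower in the knockout, where 19.5% of all genes tested were lower at that level. By edgeR the count was also 0, with 2 lower at an unadjusted p under 0.05, Ifih1 and Bst2, beside 26.3% of all genes. Of all 19959 genes tested by DESeq2, 18.2% were called higher and 15.5% lower, and among the 8196 whose mean lay within the range of the 9 genes, 15.5 to 311.7 normalised counts, 17.1% were higher and 17.0% lower. By edgeR 22.7% of 15792 genes were called higher and 22.4% lower. The fold change was negative for 8 of the 9 genes, with a median of -0.41 on the log2 scale beside 0.01 over all genes tested. The lowest adjusted p, that of Ddx58, was 0.0562. In bulk hearts fewer cells of a type and less RNA per cell cannot be told apart.

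The targeted gene was checked first. Lrpprc averaged 3665 ± 216 normalised counts in wildtype and 577.0 ± 48.6 in knockout hearts (SD, n = 4 each). Libraries held 35218541 to 47743376 expected counts, and mitochondrial rRNA took 44.01 to 46.86% of them in the wildtype and 65.63 to 67.84% in the knockout. Normalised counts were scaled by the median gene and by each gene's effective length, and all values per library below are on that scale. Cardiomyocyte markers summed to between 2395160 and 2607616 in the wildtype and between 1471771 and 1852959 in the knockout, and of the 9 markers 7 were called lower and 1, Mybpc3, higher.

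**Figure D1:**
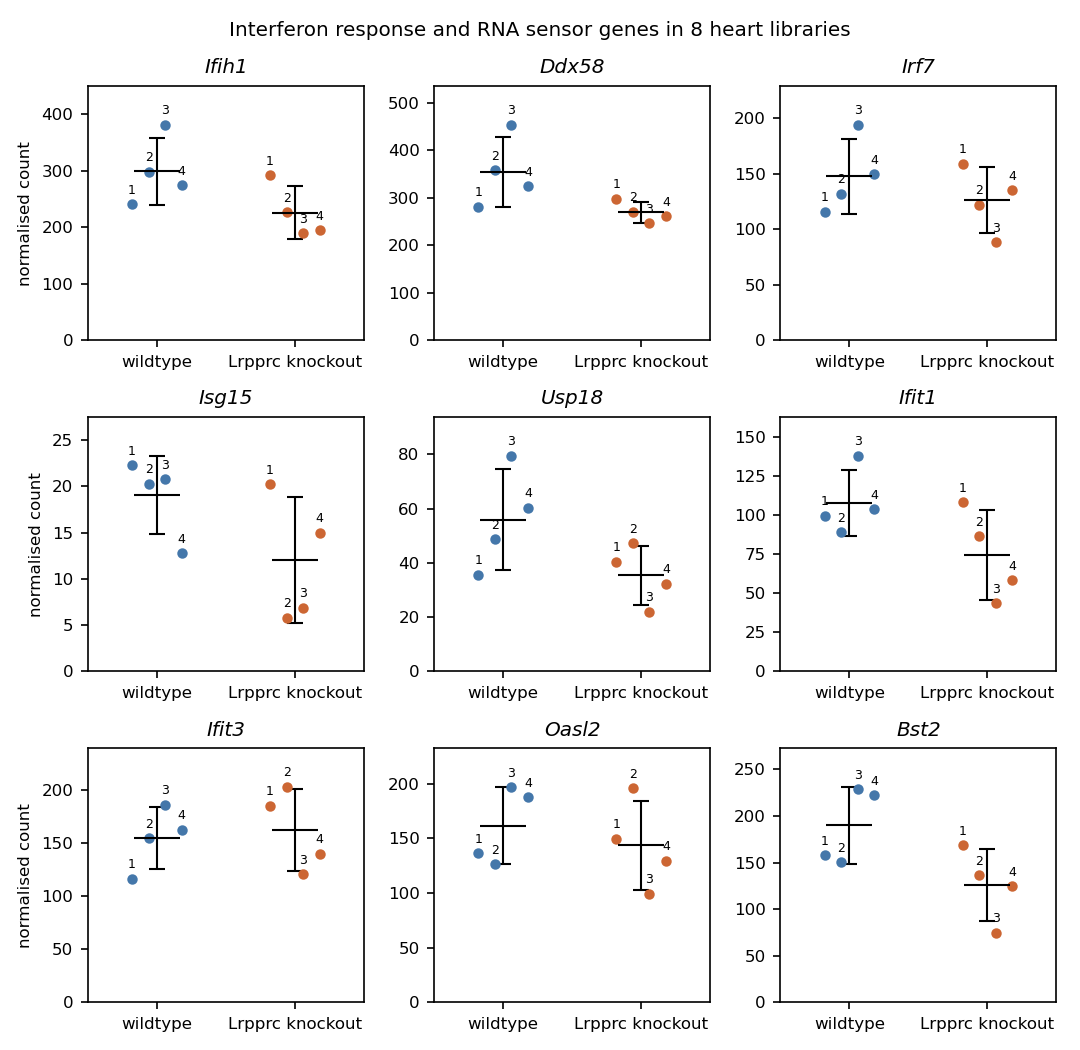
Normalised counts of the 9 genes in each of the 8 libraries (vertical axis from 0, 1 panel per gene), with wildtype in blue, Lrpprc knockout in orange, the replicate number beside each point, and the mean with its SD in black. The groups overlap in every panel; among the wildtype libraries replicate 3 is highest for 8 of the 9 genes and among the knockout libraries replicate 3 is lowest for 8 of the 9.

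Both RNA sensors had lower means in the knockout. Ifih1, which encodes MDA5, a sensor of long duplex RNA, maps to the minus strand of chromosome 2 (62595798 to 62646255, GRCm38, as for every gene position here). Wildtype replicates 1 to 4 gave 241.5, 298.5, 381.5 and 275.1 normalised counts, and knockout replicates 1 to 4 gave 292.0, 226.6, 189.5 and 195.3, the order of replicates used for every gene below. Knockout replicate 1 stood within the wildtype range, while the other 3 knockout libraries were lower than any wildtype library. The means were 299.1 ± 59.7 and 225.9 ± 47.0 (SD, n = 4 each), with a log2 fold change of -0.41 (SE 0.199, DESeq2, adjusted p = 0.102).

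Ddx58 encodes RIG-I, which recognises duplex RNA with an uncapped end, and maps to the minus strand of chromosome 4 (40203773 to 40239828). It had 281.2, 358.5, 453.4 and 324.3 normalised counts in the wildtype and 297.7, 270.4, 246.8 and 261.2 in the knockout. The highest knockout library was above the lowest wildtype library, so the groups overlapped by this pair alone. The log2 fold change was -0.40 (SE 0.169, 95% interval -0.73 to -0.06, DESeq2, adjusted p = 0.0562), and edgeR gave -0.31 with an adjusted p of 0.175. Ddx58 passed when genes had to reach 10 counts in 4 libraries to be tested (adjusted p = 0.0448) and when wildtype replicate 1 was left out (adjusted p = 0.0178), where 19.6% and 13.2% of all genes were called lower.

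Irf7, the transcription factor that amplifies type I interferon production and is itself induced by interferon, maps to the minus strand of chromosome 7 (141262706 to 141266481). Its normalised counts were 115.8, 132.1, 194.2 and 149.7 in the wildtype and 159.3, 122.2, 88.2 and 135.2 in the knockout. Only knockout replicate 3 fell outside the wildtype range. The log2 fold change was -0.23 (SE 0.234, 95% interval -0.69 to 0.23, DESeq2, adjusted p = 0.494). The gene overlaps Phrf1 on the opposite strand, and the reads were counted by strand.

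Isg15 and Usp18 belong to the same modification pathway. Isg15, a ubiquitin-like protein joined to other proteins after interferon exposure, maps to the minus strand of chromosome 4 (156199424 to 156200818) and had the lowest counts of the 9 genes. Its normalised counts were 22.3, 20.3, 20.8 and 12.8 in the wildtype and 20.2, 5.8, 6.9 and 15.0 in the knockout. Knockout replicates 2 and 3 lay below every wildtype library and the other two did not. An annotated copy, 95.2% identical over 482 bases, had no record of its own in the count tables. At this depth the log2 fold change of -0.66 came with a 95% interval of -1.62 to 0.31 (SE 0.494, DESeq2, adjusted p = 0.327).

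Usp18 removes ISG15 from proteins and also dampens signalling from the type I interferon receptor. It maps to the plus strand of chromosome 6 (121245906 to 121270917) and had 35.6, 48.7, 79.5 and 60.3 normalised counts in the wildtype and 40.5, 47.2, 22.0 and 32.4 in the knockout. Knockout replicates 3 and 4 lay below the wildtype range. The log2 fold change was -0.66 (SE 0.342, 95% interval -1.33 to 0.01, DESeq2, adjusted p = 0.126).

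None of the 4 antiviral effectors passed the test. Ifit1, whose protein binds foreign RNA ends and blocks their translation, maps to the plus strand of chromosome 19 (34640871 to 34650009). It had 99.6, 89.0, 138.0 and 103.7 normalised counts in the wildtype and 108.3, 86.6, 43.8 and 58.3 in the knockout. Knockout replicate 1 was inside the wildtype range and the other 3 were below it, with a log2 fold change of -0.54 (SE 0.292, 95% interval -1.11 to 0.04, DESeq2, adjusted p = 0.149).

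Ifit3, a partner of Ifit1 from the same gene cluster on chromosome 19 (34583531 to 34588731, plus strand), was the only one of the 9 genes with a positive fold change. Its normalised counts were 116.6, 154.8, 186.5 and 163.1 in the wildtype and 185.4, 203.4, 121.0 and 140.1 in the knockout. Knockout replicate 2 alone was above the wildtype range, and the log2 fold change was 0.06 (SE 0.219, 95% interval -0.37 to 0.49, DESeq2, adjusted p = 0.866). Its transcript is 97.8% identical to that of Ifit3b over 1700 bases, so reads could be divided between them, and the sum of both gave 210.1 ± 36.5 and 206.4 ± 55.5 (SD, n = 4 each), or -0.03 on the log2 scale (DESeq2, adjusted p = 0.941).

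Oasl2, a relative of the oligoadenylate synthetases, maps to the plus strand of chromosome 5 (114896936 to 114912234). It had 136.2, 126.5, 196.5 and 187.5 normalised counts in the wildtype and 149.5, 195.6, 99.3 and 129.7 in the knockout. Only knockout replicate 3 was outside the wildtype range, and the log2 fold change was -0.17 (SE 0.242, 95% interval -0.64 to 0.30, DESeq2, adjusted p = 0.64).

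Bst2, or tetherin, which holds budding viruses at the cell surface, maps to the minus strand of chromosome 8 (71534255 to 71537456). Its normalised counts were 158.0, 150.6, 229.0 and 222.2 in the wildtype and 168.6, 136.2, 74.7 and 124.7 in the knockout. All knockout libraries but replicate 1 lay below the wildtype range. The means were 189.9 ± 41.4 and 126.1 ± 39.0 (SD, n = 4 each) and the log2 fold change was -0.59 (SE 0.258, 95% interval -1.10 to -0.09, DESeq2, adjusted p = 0.0616), with 0.0654 by edgeR.

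**Figure D2:**
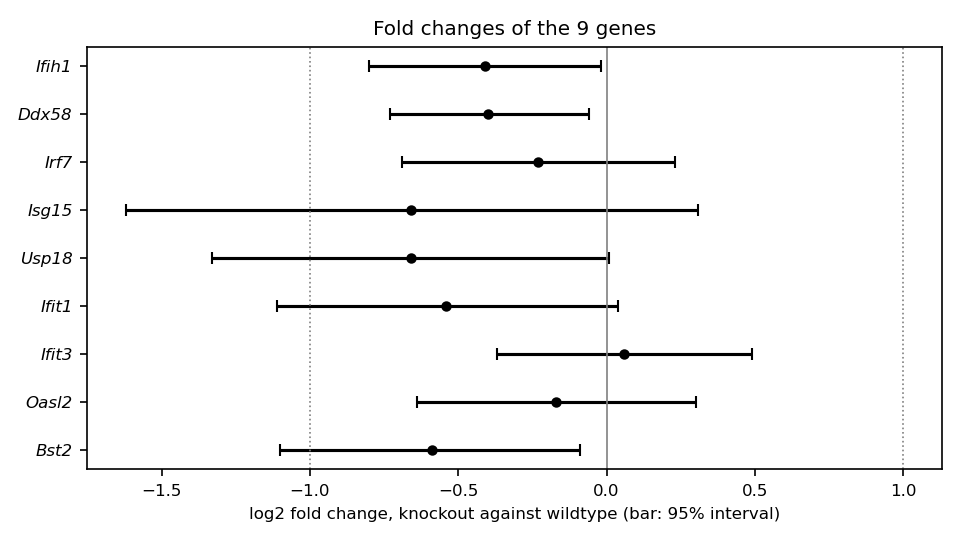
Log2 fold change of each of the 9 genes, knockout against wildtype (points), with 95% intervals (bars) and dotted lines at -1 and 1. The points run from -0.66 for Isg15 and Usp18 to 0.06 for Ifit3, and no interval reaches 1.

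The intervals bound how far these genes could have risen. The highest upper limit was 1.41-fold, for Ifit3, followed by 1.24-fold for Isg15 and Oasl2 and 1.17-fold for Irf7. For Ifih1, Ddx58 and Bst2 the upper limits were 0.99-fold, 0.96-fold and 0.94-fold. These are limits of single genes under the scaling by the median gene, and under total counts without mitochondrial rRNA the median of the 15741 genes averaging 10 counts or more moved from 0.02 to 0.44 and the fold changes of Ifih1, Ddx58, Irf7 and Oasl2 turned positive, to between 0.02 and 0.26, with adjusted p of 0.441 or more by DESeq2. That of Ifit3 became 0.49, with an adjusted p of 0.0739, the lowest of the 9 under that scaling. Relative to the median gene, the median of the 9 genes was -0.42 under that scaling, -0.43 under total counts and -0.43 in the main analysis, and the same number of genes, 8 of 9, lay below the median gene each time. A change of scaling moves all genes by nearly the same amount, so this likeness was fixed in advance and is no check of the result.

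Calls depended on scaling and on single libraries. With libraries scaled to their total counts, which moved the same median to -0.28, 5 of the 9 genes were called lower, Ifih1, Ddx58, Usp18, Ifit1 and Bst2, while the share of all genes called lower rose to 29.6%. Without knockout replicate 1, 4 were called lower, Ifih1, Ddx58, Ifit1 and Bst2, with a lowest adjusted p of 0.0136 by DESeq2, beside 15.5% of all genes. No gene of the 9 was called higher under any alternative.

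Most of the 9 genes varied together from animal to animal. The order of Isg15 differed in part, at counts too low to judge it. It was highest in wildtype replicate 1 (22.3, beside 20.3 and 20.8 in replicates 2 and 3) and lowest in wildtype replicate 4. Among the knockouts it was lowest in replicate 2 (5.8, beside 6.9 in replicate 3) and highest in replicate 1, like most of the 9. Expressed as a ratio to the wildtype mean, the median of the 9 genes was 0.81, 0.89, 1.28 and 1.01 in the wildtype and 0.98, 0.81, 0.60 and 0.74 in the knockout, replicates 1 to 4 each. For the 7 genes averaging at least 50 normalised counts, each gene's deviations from its genotype mean correlated over the 8 libraries with the mean profile of the 7 at r = 0.814 (Ddx58) to 0.929 (Irf7). This is a description, since each gene is part of that profile and the libraries share their scaling. Outside the 9, the genes with the most similar deviations were Trim5, a cytosolic restriction factor, at 0.992, and Mlkl, the effector of necroptosis, at 0.973. They were followed by Mrpl13, Fam149b, Nostrin, Xaf1, Tor1b, Scly, Atg5 and Tuba1a at 0.969 to 0.954. Of these 10 genes, 2, Trim5 and Xaf1, were in the list of pathway genes, which made up 0.945% of the 12163 genes compared. Trim5 is 97.0% identical to Trim12a over 952 bases, so its value is uncertain.

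Levels between genes were compared as TPM, which is per length, in the wildtype only. Bst2 stood highest at 8.37 ± 1.73 TPM, then Ddx58 at 3.93 ± 0.821, Ifit3 at 2.71 ± 0.493, Oasl2 at 2.71 ± 0.562, Irf7 at 2.62 ± 0.593, Ifih1 at 2.11 ± 0.425, Ifit1 at 1.19 ± 0.235, Usp18 at 1.06 ± 0.346 and Isg15 at 0.893 ± 0.213 TPM (SD, n = 4 each). The ranges of neighbours in this order overlapped except between Bst2 and Ddx58 and between Ifih1 and Ifit1. Because TPM is a share of all RNA counted, mitochondrial rRNA included, it was not used to compare the genotypes.

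The wider pathway was examined with a list of 153 other genes by role, of which 152 matched and 140 were tested. Of these, 12 were higher and 39 lower in the knockout (DESeq2, adjusted p under 0.05), with a median log2 fold change of -0.26, and 10 and 37 of these calls were also made by edgeR. The balance followed the scaling: with total counts 3 were higher and 64 lower, beside 9.64% and 29.6% of all genes, and without mitochondrial rRNA in the totals 47 were higher and 6 lower, beside 37.8% and 5.26%. The 4 knockout libraries were all lower than the 4 wildtype libraries for 37 of the 140 genes and all higher for 12, whereas over all tested genes 16.4% were all lower and 16.7% all higher. The counts of called genes in the role groups below stand beside 18.2% higher and 15.5% lower over all tested genes, and with 8 to 26 genes in a group a count near those shares is no result about the group. Knockout replicate 3 was the lowest knockout library for 89 of the 140 genes.

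**Figure D3:**
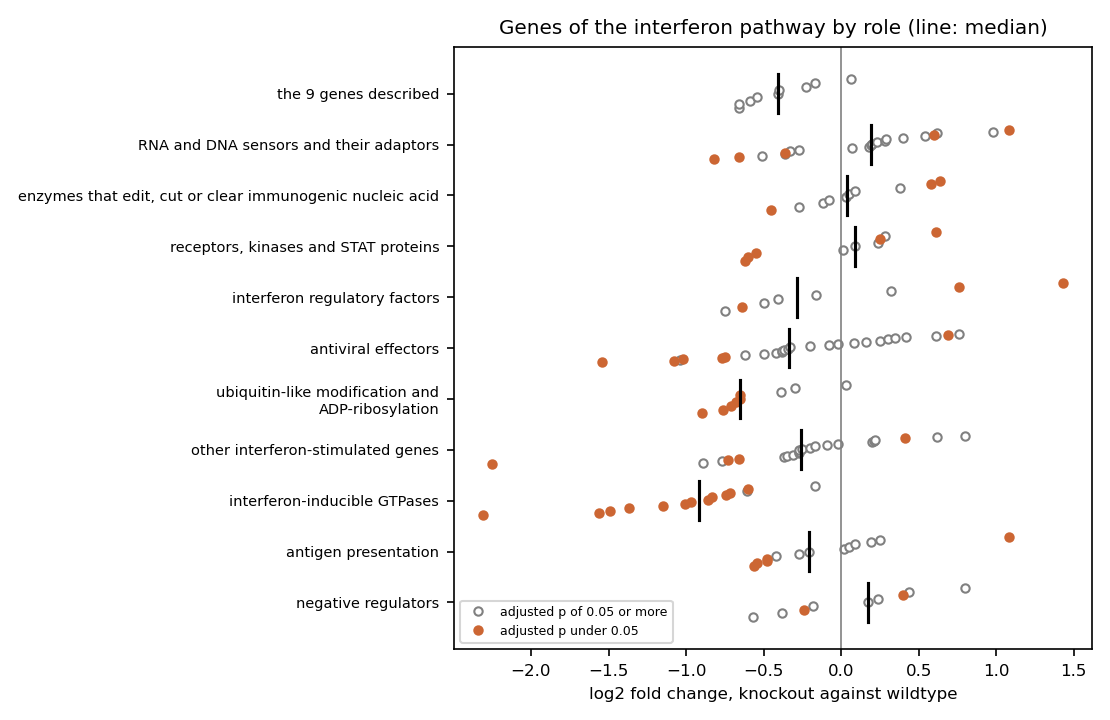
Log2 fold change, knockout against wildtype (horizontal axis), of the 9 genes and of the tested genes of the pathway list in 10 role groups, with filled points for an adjusted p under 0.05, open points for the others and a line at each median. All 14 GTPases lie left of 0, with 12 filled points, while the sensors and their adaptors lie on both sides.

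None of the ligands listed was measurable, and the list does not hold every interferon gene of the mouse. Of 12 interferon genes, Ifnb1 among them, 11 had 0 counts in all 8 libraries, which allows up to 3 counts in a library, and Ifng had 1 count in knockout replicate 1. This floor of 3 counts covers counting error only, and not the spread between animals.

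Among 20 other sensors and adaptors 2 rose and 3 fell, no more than the shares over all genes, with a median of 0.19. Aim2, a sensor of cytosolic DNA, rose from 18.9 ± 5.5 to 39.5 ± 15.4 normalised counts (SD, n = 4 each, log2 fold change 1.08, SE 0.398, DESeq2, adjusted p = 0.0236), a call lost under 6 of 15 alternatives. Traf3, which relays signals from MAVS, rose by DESeq2 (log2 fold change 0.60, SE 0.11, adjusted p = 7.31e-07) but not by edgeR without the length offset (0.21, adjusted p = 0.0665). Ddx60, a helicase linked to RIG-I signalling, fell by 0.82 on the log2 scale (SE 0.276, DESeq2, adjusted p = 0.0116), and Nlrx1, a mitochondrial regulator of MAVS, fell by 0.66 (SE 0.175, DESeq2, adjusted p = 0.000877). Mavs itself had 1279 ± 96.6 and 1019 ± 185.8 normalised counts (SD, n = 4 each, DESeq2, adjusted p = 0.0606, and 0.0482 by edgeR). The third helicase of the family, Dhx58 (LGP2), had 31.5, 32.5, 50.1 and 32.4 normalised counts in the wildtype and 34.8, 26.2, 9.6 and 32.8 in the knockout, and the RNA-dependent kinase Eif2ak2 (PKR) differed by 0.18 on the log2 scale (DESeq2, adjusted p = 0.528). Eif2ak2 was called higher under 1 of 15 alternatives and its direction was reversed under 1.

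Enzymes that edit or clear immunogenic RNA are of interest here because mitochondrial duplex RNA is removed by the degradosome of PNPase (Pnpt1) and SUV3 (Supv3l1). Pnpt1 had 392.7, 372.0, 385.8 and 484.6 normalised counts in the wildtype and 449.4, 507.6, 358.5 and 428.2 in the knockout. Supv3l1 had 507.4, 497.0, 569.0 and 615.0 normalised counts in the wildtype and 634.2, 500.5, 469.5 and 468.8 in the knockout. The groups overlapped for both, and the log2 fold changes were 0.09 (95% interval -0.20 to 0.38) and -0.08 (95% interval -0.36 to 0.20) with adjusted p of 0.682 and 0.716 by DESeq2.

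Adar, which edits duplex RNA so that MDA5 does not bind it, had 530.2, 557.8, 592.3 and 595.8 normalised counts in the wildtype and 415.2, 425.4, 365.9 and 454.5 in the knockout. All 4 knockout libraries of Adar lay below the wildtype, and it fell by 0.45 on the log2 scale (SE 0.111, DESeq2, adjusted p = 0.000294, and 0.0436 by edgeR). The call was lost without the length offset (-0.31, DESeq2, adjusted p = 0.0507) and without mitochondrial rRNA in the totals (-0.02, DESeq2, adjusted p = 0.906). Of the 10 enzymes of this group 2 rose, among them Rnaseh2b, a subunit of an enzyme that removes RNA from DNA hybrids, by 0.64 on the log2 scale (SE 0.188, DESeq2, adjusted p = 0.00316).

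Of 9 receptors and signal transducers 2 were called higher, near the share over all genes, and 3 lower. Stat2 had 274.0, 317.7, 292.1 and 281.2 normalised counts in the wildtype and 256.7, 175.1, 155.8 and 209.8 in the knockout. Every knockout library was below every wildtype library, knockout replicate 1 by the least, and the gene fell by 0.55 on the log2 scale (SE 0.173, DESeq2, adjusted p = 0.00678). Irf9, of the same complex, had 316.2 ± 55.8 and 224.2 ± 66.7 normalised counts (SD, n = 4 each, DESeq2, adjusted p = 0.0805, and 0.0174 by edgeR).

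The receptor for type I interferon showed no call, with log2 fold changes of 0.09 for Ifnar1 (DESeq2, adjusted p = 0.544) and 0.28 for Ifnar2 (DESeq2, adjusted p = 0.0625, and 0.0194 by edgeR), whose value is uncertain because of a copy, Gm21970, 99.7% identical over 318 bases. The chains of the interferon gamma receptor moved in opposite directions, Ifngr1 by 0.61 (DESeq2, adjusted p = 0.00373) and Ifngr2 by -0.62 (DESeq2, adjusted p = 0.00258). The kinase Jak1 rose by 0.25 on the log2 scale (DESeq2, adjusted p = 0.0253), which became -0.05 with total-count scaling, and its call was lost under 6 other alternatives. Among the 8 other interferon regulatory factors Irf1 fell from 366.5 ± 58.7 to 236.3 ± 54.8 normalised counts (SD, n = 4 each, DESeq2, adjusted p = 0.00575). Irf8, a factor of myeloid cells, rose from 87.2 ± 13.3 to 146.7 ± 30.4 (SD, n = 4 each, DESeq2, adjusted p = 0.0016). Irf3, which MAVS activates, differed by -0.16 on the log2 scale (DESeq2, adjusted p = 0.303).

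Among 26 other antiviral effectors 1 rose and 5 fell. Ifit1bl1, of the Ifit cluster, rose by 0.69 on the log2 scale (DESeq2, adjusted p = 0.0231), while Oas1g fell by 1.54 (DESeq2, adjusted p = 0.0427) and Oasl1 by 1.08 (DESeq2, adjusted p = 0.0404, and 0.0943 by edgeR). Of 15 alternatives, the call was lost under 8 for Ifit1bl1, 7 for Oas1g and 10 for Oasl1. Oas1g is 97.5% identical to Oas1a over 1860 bases, so its value is uncertain. Of 9 genes of ubiquitin-like modification and ADP-ribosylation 6 fell and none rose, with a median of -0.65. Dtx3l, a ubiquitin ligase that acts with Parp9, fell from 506.1 ± 30.3 to 271.0 ± 87.7 normalised counts (SD, n = 4 each, DESeq2, adjusted p = 0.000245). Herc6, the ligase that attaches ISG15 in the mouse, fell by 0.76 on the log2 scale (DESeq2, adjusted p = 0.000329, and 0.0881 by edgeR), and its value is uncertain because 688 of its bases are identical to Gm45193.

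The interferon-inducible GTPases, guanylate-binding proteins and immunity-related GTPases that attack the membranes of intracellular pathogens, were the group with the lowest median. Of 14 tested, 12 fell, none rose and all 14 had a negative fold change, with a median log2 fold change of -0.91. Iigp1 (chromosome 18 from 60376027 to 60392634, plus strand) had 965.0, 667.1, 685.8 and 1005 normalised counts in the wildtype and 369.5, 226.5, 237.8 and 293.5 in the knockout. Its highest knockout library was well under its lowest wildtype library, and the log2 fold change was -1.56 (SE 0.205, DESeq2, adjusted p = 7.17e-13).

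Gbp6 had 709.6, 513.4, 1647 and 973.2 normalised counts in the wildtype and 241.0, 153.2, 227.0 and 154.0 in the knockout (log2 fold change -2.31, SE 0.316, DESeq2, adjusted p = 6.05e-12). It is 99.8% identical to Gm43302 over 3923 bases and overlaps that record on the same strand, so its value is uncertain. Such a copy or a gene overlapping on the same strand was found for 8 of the 12 lower GTPases, and not for Gbp2, Gbp5, Irgm1 and Iigp1. Gbp2 had 338.4 ± 69.6 and 168.5 ± 50.2 normalised counts, Gbp5 had 135.2 ± 33.7 and 76.1 ± 18.8, and Irgm1 had 304.4 ± 34.0 and 200.7 ± 21.3 (wildtype and knockout, SD, n = 4 each). The groups did not overlap for any of these 4 genes. When each library was left out in turn, 12 or 13 of the 14 were called lower. With mitochondrial rRNA left out of the totals 5 were. Relative to the median gene their median was then -0.93, as in the main analysis, a likeness fixed in advance because scaling moves all genes nearly alike.

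Promoter windows of 10 of the 14 GTPases were found, and 9 held the ISRE letters. The gamma-activated sequence (GAS), an element of genes induced by interferon gamma, searched as TTCNNNGAA, which reads the same on both strands, was in 6 of the 10, in 1 of the 8 windows of the 9 genes described (Bst2) and in 9.55% of all genes with a window. Igtp, at chr11:58199514-58199539 for the ISRE and chr11:58199503-58199527 for the GAS (plus), and Gbp2 at chr3:142620596-142620621 (plus) are shown as examples from the group with the lowest median, again with the match in capitals.
Igtp, ISRE: taggaactGAAACTGAAAgctgttcg
Igtp, GAS: ctagccatTTCTAGGAActgaaact
Gbp2, ISRE: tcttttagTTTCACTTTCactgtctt

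**Figure D4:**
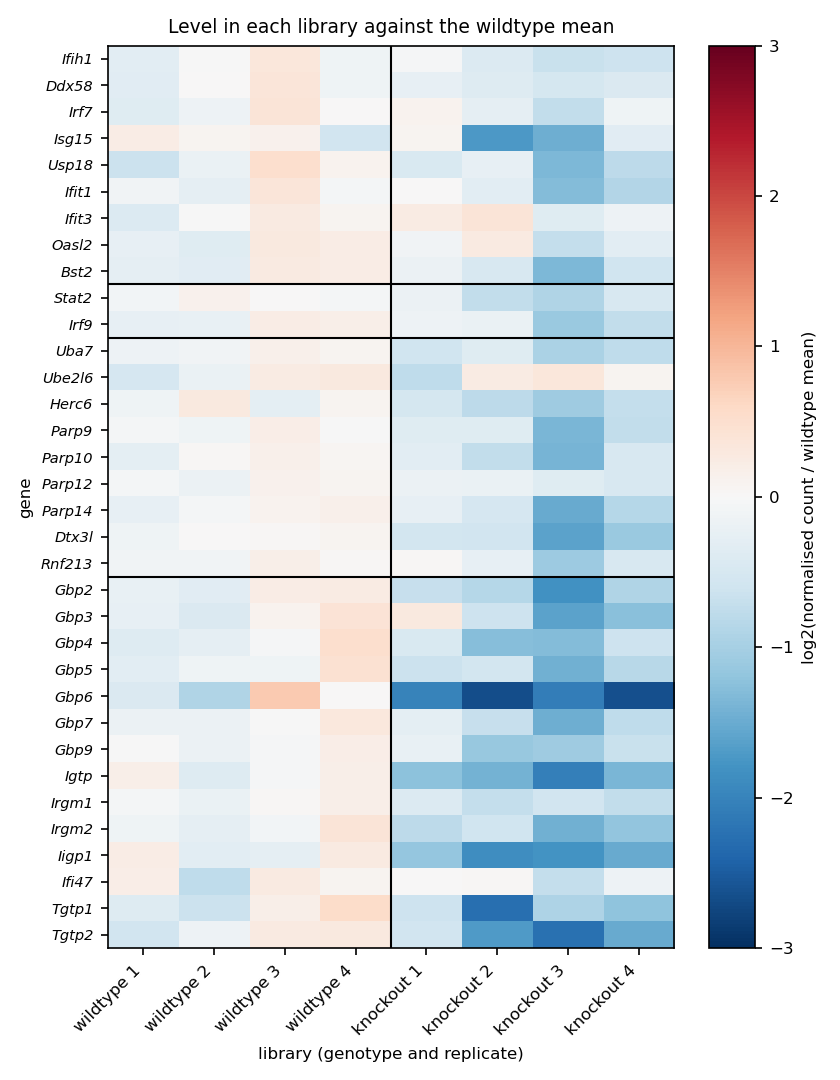
Heat map of the log2 ratio of each normalised count to the gene's wildtype mean (colour, from -3 in blue to 3 in red) in the 8 libraries (columns), for the 9 genes, for Stat2 and Irf9, for ubiquitin-like modification and ADP-ribosylation, and for the GTPases (blocks from top to bottom). The columns of knockout replicates 2 to 4 are mostly blue in the lower blocks, and knockout replicate 1 is close to the wildtype for most of the 9 genes but blue for most GTPases, such as Gbp6, Igtp and Iigp1.

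Of 22 other interferon-stimulated genes 1 rose and 3 fell. Cxcl9, a chemokine induced by interferon gamma, had 34.4, 32.2, 50.2 and 78.1 normalised counts in the wildtype and 9.9, 15.8, 7.9 and 6.7 in the knockout. The groups did not overlap, and the log2 fold change was -2.25 (SE 0.456, DESeq2, adjusted p = 7.94e-06). Phf11d fell by 0.73 (DESeq2, adjusted p = 0.0418) and Tor3a rose by 0.41 (DESeq2, adjusted p = 0.0464) on the log2 scale, but Phf11d lost its call under 8 and Tor3a under 7 of 15 alternatives. Phf11d is also 97.4% identical to Phf11a over 659 bases, which leaves its value uncertain.

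In antigen presentation 1 of 13 genes rose and 4 fell. Psmb10, a subunit of the immunoproteasome, had 327.3, 330.8, 451.7 and 440.3 normalised counts in the wildtype and 1101, 715.4, 709.2 and 748.4 in the knockout, which put all knockout libraries above the wildtype (log2 fold change 1.08, SE 0.189, DESeq2, adjusted p = 1.49e-07). Tap1, a chain of the peptide transporter, fell by 0.56 (DESeq2, adjusted p = 0.0248) and Tapbp, which links that transporter to class I molecules, by 0.54 (DESeq2, adjusted p = 1.04e-05). The call was lost under 4 of 15 alternatives for Tap1 and under 1 for Tapbp. Of 9 negative regulators, Ptpn2, a phosphatase that acts on JAK and STAT proteins, rose by 0.40 (DESeq2, adjusted p = 0.00465) and Cyld, a deubiquitinase, fell by 0.24 (DESeq2, adjusted p = 0.045), a call lost under 7 of 15 alternatives and reversed under 1.

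Cell type markers moved beside these genes. Counts of called markers stand beside 18.2% higher and 15.5% lower over all tested genes, and with so few markers a count near those shares is no result. Macrophage and monocyte markers were higher for 9 of 12, with a median log2 fold change of 0.78, and their summed normalised counts were 4792 to 6513 in the wildtype and 5152 to 12674 in the knockout. The count of higher markers was 4 without knockout replicate 2 and 5 without knockout replicate 4. Neutrophil markers were higher for 4 of the 4 tested, with sums of 62.4 to 118.5 and 129.3 to 653.4, although Ly6g was at 0 in all libraries. Fibroblast markers were higher for 3 of 8, with sums of 18290 to 19118 and 16670 to 54625. Those 3 were the collagens Col1a1, Col1a2 and Col3a1, while Pdgfra had a log2 fold change of -0.06 and Dpt, with all knockout libraries below the wildtype, one of -0.51 (DESeq2, adjusted p = 0.843 and 0.091). Of the endothelial markers 0 of 8 were called, with sums of 15592 to 17318 and 11028 to 20087.

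Plasmacytoid dendritic cell markers, of cells known for their output of type I interferon, summed to 11.1 to 16.6 and 10.2 to 25.2 normalised counts, and no marker of these cells, of T cells, of B cells, of natural killer cells or of erythroid cells was called by DESeq2. Wildtype replicate 3 had the highest macrophage sum of its group and the highest level of 8 of the 9 genes, and knockout replicate 3 had the lowest macrophage, fibroblast and endothelial sums of its group and the lowest level of 8 of the 9. Knockout replicate 1, the highest knockout library for 6 of the 9 genes, had a macrophage sum of 6983, above only that of replicate 3, and the highest endothelial sum, 20087. In the wildtype the endothelial sums were 15592, 16318, 17318 and 16621 in replicates 1 to 4, the same order as the median of the 9 genes. In the knockout they were 20087, 13266, 11028 and 16218, and the order differed, since replicate 4 was above replicate 2 in endothelial markers and below it in the median of the 9 genes. Erythroid sums were 20885, 21094, 26748 and 27056 in the wildtype and 15234, 45842, 53868 and 22072 in the knockout. Among the knockouts they were lowest in replicate 1 and highest in replicate 3. The part of cell composition in the levels of the interferon genes was not tested.

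**Figure D5:**
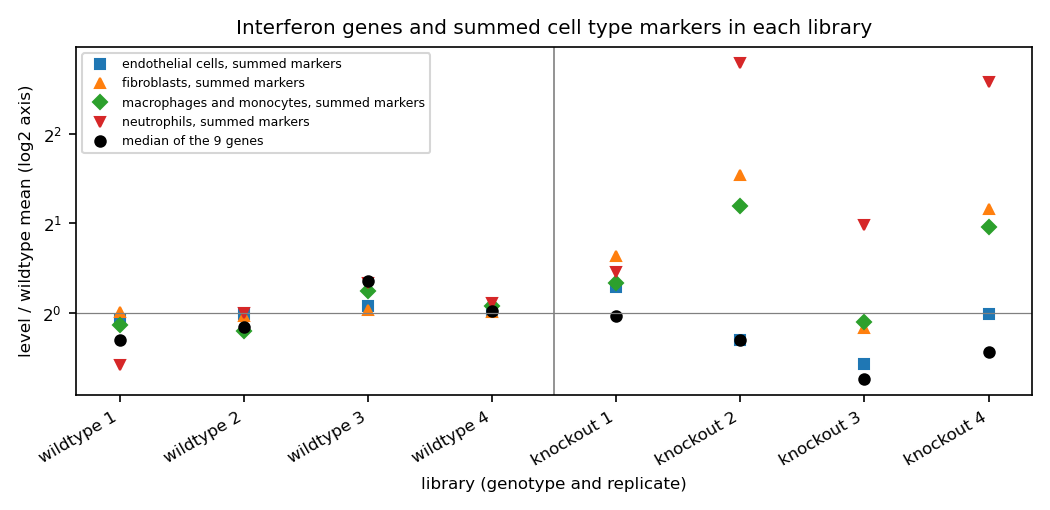
Summed markers of endothelial cells, fibroblasts, macrophages and monocytes, and neutrophils, and the median of the 9 genes (black), each as a ratio to its wildtype mean (vertical log2 axis) in the 8 libraries. Neutrophil, macrophage and fibroblast sums are highest in knockout replicates 2 and 4, where the median of the 9 genes is 0.81 and 0.74 of the wildtype mean.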

How the data were processed

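RNA from hearts of 4 wildtype and 4 Lrpprc knockout mice, grouped by their labels, was sequenced after depletion of cytoplasmic rRNA. The authors made the deposited expected counts and TPM values by aligning reverse-stranded read pairs with bowtie2 in RSEM 1.2.31 against GENCODE transcripts (build mm10) with their own mitochondrial sequences added. Reads matching several genes are divided among them by RSEM, so values can be fractions. The deposited effective lengths are other values in bases by the authors. The authors' table of DESeq2 1.16.1 fold changes and p-values was not used, nor were 8 columns of normalised counts whose names match no label.

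Expected counts were rounded and fitted over all genes with DESeq2 1.42.0 in R 4.3.3, with a term for genotype, size factors by the median of ratios and an offset from the effective lengths (0 set to 1). Fold changes were not shrunk, intervals are Wald 95% intervals, and Benjamini-Hochberg adjusted p under 0.05 was called. Alternatives were edgeR 4.0.16 with TMM and no length offset, no length offset in DESeq2, a filter of 10 counts or more in 4 libraries, a replicate block, the sum of copies, 1 library left out in turn, and scaling by nuclear genes, by total counts or by total counts less mitochondrial rRNA. Symbols and GRCm38 positions came from a GENCODE annotation and matched 50339 of 50563 Ensembl identifiers. Copies were found with blastn 2.17.0 at 95% identity or more over 200 bases or more.

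The 9 genes, the pathway list and the marker lists were chosen with earlier results of these data known. Named were all 9 genes, 13 fixed pathway genes, and in each role group the 2 largest changes in each direction past the threshold averaging 10 normalised counts or more, and the 10 genes most alike in pattern averaging 50 or more (log2 with a pseudocount of 1). Of the GTPases, Gbp2, Gbp5, Igtp and Irgm1 were named after their values were seen. Of the genes the rule gives, 3 are not reported here. Depth was 35218541 to 47743376 counts per library. Pairs of replicates differed by more than sampling noise (chi-square per degree of freedom 4.65 to 52.9), so each counted as 1. On simulated data with 200 changed genes 53% were recovered by DESeq2, which tested 15785 genes (65% of those changed by 2-fold), and 25.35% of its 142 calls were unchanged genes. For edgeR it was 42% among 15419 (59% of those changed by 2-fold), with 7.69% of 91 calls. The other changed genes had smaller changes, and gene lengths were constant. In the real data 18.2% of genes tested by DESeq2 were called higher and 15.5% lower, so the simulated shares do not carry over to them.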

Additional observations from a re-analysis of the deposited data

Results flagged for a closer look

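In 5 of 92 groups of 4 libraries, 1 library stood far from the other 3 by Dixon's test, and chance alone gives about 1 in 20, or 4.6. None of the 9 genes described was among them. Dhx58 had 50.1 normalised counts in wildtype replicate 3 beside 31.5 to 32.5 in the others. Psmb10 had 1101 in knockout replicate 1 beside 709.2 to 748.4. Tap1 had 326.9 in wildtype replicate 4 beside 190.0 to 207.3. Cyld had 868.5 in wildtype replicate 1 beside 954.1 to 971.6. Lrpprc had 504.3 in knockout replicate 2 beside 597.4 to 605.4.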

How the results depend on the processing

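The count of the 9 genes called higher was 0 under every alternative. The count called lower, 0 in the main analysis, was 1 with the filter on low counts and 5 with total-count scaling, and ran from 0 to 4 when each library was left out. Pathway genes called higher, 12, became 3 with total-count scaling, 47 without mitochondrial rRNA in the totals, and 7 to 17 with a library left out. Pathway genes called lower, 39, became 64 with total-count scaling, 6 without mitochondrial rRNA in the totals, and 28 to 45 with a library left out. GTPases called lower, 12, became 5 without mitochondrial rRNA in the totals. Macrophage markers called higher, 9, became 4 with total-count scaling, and 4 to 12 with a library left out. The median log2 fold change of the 9 genes, -0.41, became 0.02 without mitochondrial rRNA in the totals and -0.55 to -0.27 with a library left out.

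Without mitochondrial rRNA in the totals the log2 fold changes turned positive, to 0.02 for Ifih1, 0.03 for Ddx58, 0.20 for Irf7, 0.26 for Oasl2, 0.09 for Mavs, 0.35 for Supv3l1 (DESeq2, adjusted p = 0.0416), 0.26 for Irf3 and 0.19 for Cyld. With total-count scaling they turned negative, to -0.23 for Ifit3, -0.10 for Eif2ak2, -0.19 for Pnpt1, -0.20 for Ifnar1, -0.02 for Ifnar2 and -0.05 for Jak1. These scalings moved the median of 15741 genes from 0.02 to 0.44 and to -0.28, and counts of calls moved with it. Ifit3 was also -0.03 with its copy summed, and -0.06 to 0.18 with a library left out. Other values of single genes kept their direction: 584 stayed on their side of the threshold, 91 lost a call and 28 gained one.

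With a replicate block 0 of the 9 genes were called, with a lowest adjusted p of 0.125 by DESeq2. The numbers did not pair the libraries, since the deviations of libraries with the same number correlated at -0.08 to 0.09 and 1 of 4 correlated best with its own number, so they share a number only. The number of animals limits precision, and among the 9 genes most of all for Isg15, whose highest expected count was 24.0.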
